A study of Mus musculus with 12 samples.

Results

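The genes of oxidative phosphorylation were followed through 4 groups of mouse striatum. They were taken as the protein-coding genes whose symbols begin with mt-, Nduf followed by a, b, c, s or v, Uqcr, Cox followed by a digit from 4 to 8, or Atp5, together with Sdha, Sdhb, Sdhc and Sdhd, where at least 10 reads were counted in 3 or more libraries. Of 107 protein-coding genes with such symbols, 104 met the count rule, 91 encoded in the nucleus and 13 on the mitochondrial chromosome, and all 104 were among the 18537 genes tested. The 3 genes below the rule were Cox7b2 (10 or more counts in 1 library), Cox8c (at most 4 counts) and a second Atp5o entry with 0 counts in every library. Cox8b, with 2 to 25 counts, lay just inside it (10 or more counts in 5 libraries).

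Each group held 3 libraries of striatal polyA+ RNA from C57BL/6J mice. Sham animals had the sham operation and PBS, and vehicle animals had transient occlusion of the middle cerebral artery (tMCAO), a model of ischaemic stroke, and PBS. The groups titled SN011 and 3d-SN011 both carry the treatment label tMCAO+SN-011, where SN-011 is a small molecule that blocks STING, an adaptor of innate immunity. The labels do not say what 3d stands for, and no sham or vehicle library carries that prefix, so the drug and whatever 3d stands for cannot be told apart in the 3d-SN011 libraries. Age, sex, dose, hours after surgery and the hemisphere sampled were not among the labels. Nothing states whether the libraries within a group are separate animals, so the p-values measure the spread between these samples, which may be technical.

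Oxidative phosphorylation passes electrons from NADH through complex I, or from succinate through complex II, to complex III and, by cytochrome c, to complex IV and oxygen. Complexes I, III and IV pump protons, and complex V, the ATP synthase, uses the gradient to make ATP. The mitochondrial chromosome encodes the hydrophobic cores of complexes I, III, IV and V and none of complex II, while the nucleus encodes the remaining subunits and the assembly factors. In the brain, neurons draw most of their ATP from this pathway, and ischaemia deprives it of oxygen.

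The libraries held between 15806076 and 18622053 counts. Vehicle against sham gave 0% of genes tested called at an adjusted p below 0.05 (edgeR quasi-likelihood test, Benjamini-Hochberg adjustment over all genes tested). SN011 against vehicle gave 0.0162% (0.0108% higher and 0.00539% lower), or 3 genes, a count that was 513 without SN011 replicate 2, 443 by DESeq2 and 601 without the filter on low counts. The share was, for 3d-SN011 against vehicle, 57.1% and, for 3d-SN011 against SN011, 46.4%. The 10 markers of striatal projection neurons summed to between 9060 and 9710 on the counts-per-million scale (CPM) in sham. They summed to between 9250 and 9670 CPM in vehicle and to between 373 and 2260 CPM in 3d-SN011, and all 10 fell against vehicle. Of the other marker lists, in the same comparison, 8 of 8 general neuronal and 5 of 8 interneuron markers fell. Microglia and macrophage markers rose (8 of 8, from between 275 and 320 to between 2490 and 3660 CPM summed). The same held for 6 of 7 astrocyte markers (from between 4100 and 4490 to between 12000 and 18300), 5 of 6 oligodendrocyte, 4 of 5 endothelial and 5 of 7 pericyte and smooth muscle markers. Leukocyte markers gave 2 higher of 3 tested, with Cd3e, Ms4a1 and S100a8 too low to test. Of all markers, only Cd3e, Ly6c2 and Ms4a1 were at 0 in any library, Cd3e in all 3 sham libraries. Choroid plexus and ependymal markers gave 2 higher and 3 lower of 6, and red cell markers 2 lower of 5. SN011 replicate 3 lay nearer the 3d-SN011 libraries than its partners, with 5340 CPM of projection neuron markers against 8740 and 9550, and 1190 CPM of microglial markers against 499 and 397. In bulk tissue, fewer cells of a type and less RNA per cell cannot be told apart, and the part of cell composition in the results on respiratory genes was not tested.

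The mitochondrially encoded genes have to be read with their nuclear copies. A block of unprocessed pseudogenes at chr1:24611535-24616197 (GENCODE M21, GRCm38) holds at least 99% of mt-Co2, mt-Atp6, mt-Co3, mt-Nd3 and mt-Nd4l, 63.6% of mt-Nd4 and 31.3% of mt-Co1, at 99.7% identity or more. More diverged copies of mt-Co1, mt-Co2, mt-Nd2 and mt-Nd5 elsewhere match at 97.6% or less. The first part of mt-Atp8 lies in a stretch between the copies of mt-Co2 and mt-Atp6, 233 bases long on both chromosomes, and its last 43 bases, shared with mt-Atp6, match the mt-Atp6 copy. A pair of windows shows how little separates a gene from its copy: the start of mt-Nd3 (chrM:9459-9491) beside Gm28438 (chr1:24613087-24613119, minus strand), where capitals mark the 1 mismatch in 345 aligned bases (T3C, counted from the first base of the transcript), and a stretch of mt-Co2 (chrM:7043-7103) beside Gm28661 (chr1:24615475-24615535, minus strand), which match at all 681 aligned bases. All 4 are from GENCODE M21 transcripts, 5′ to 3′.
mt-Nd3: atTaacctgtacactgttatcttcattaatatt
Gm28438: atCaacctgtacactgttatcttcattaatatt
mt-Co2: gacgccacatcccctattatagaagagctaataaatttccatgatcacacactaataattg
Gm28661: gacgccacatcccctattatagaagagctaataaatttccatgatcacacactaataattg
Reads from such stretches fit both places, and the chromosome 1 copies of those 5 genes carried between 59 and 3900 counts per library.

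Per length, the mitochondrial genes fell into separate ranges along the chromosome. In sham, the 7 genes without such a near-complete copy had mean RPKM (CPM divided by exon length in kilobases) of 12760 for mt-Co1, 9673 for mt-Cytb, 7568 for mt-Nd1, 5495 for mt-Nd2, 3869 for mt-Nd4, 3573 for mt-Nd5 and 3411 for mt-Nd6. The 5 near-completely copied genes had 193.1 (mt-Atp6), 154.7 (mt-Co2), 92.3 (mt-Nd3), 84.0 (mt-Co3) and 45.2 (mt-Nd4l), and mt-Atp8 had 3.96. No library brought a copied gene into the range of the other 7. Those 7 genes supplied between 99.2% and 99.57% of the CPM of mitochondrial members in every library, so the other 6, whose own values are uncertain, weigh little in any sum. mt-Nd6 lies on the opposite strand to the other 12 and shares 14 bases with mt-Nd5, and whether counting used strand is not stated.

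**Figure D1:**
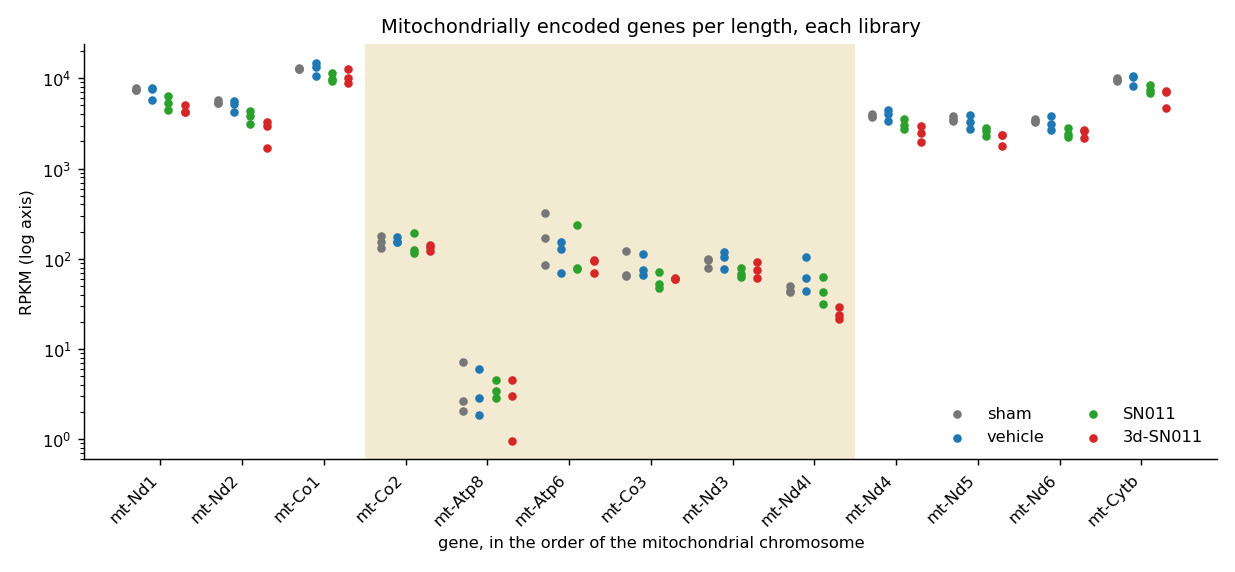
RPKM (log axis) of the 13 mitochondrially encoded genes in chromosome order, with 1 point per library and 4 groups of 3 libraries; the shaded genes are the 5 with at least 99% of the transcript copied on chromosome 1, and mt-Atp8 between them. The shaded genes lie at or below 323.3 RPKM in every library, and mt-Nd2 of 3d-SN011 reaches the lowest value of the unshaded genes, 1688 RPKM.

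Occlusion alone was not accompanied by a called difference in any respiratory gene. Against sham, vehicle libraries gave 0 of 104 genes called (edgeR quasi-likelihood test), 0 at an unadjusted p below 0.05 and 0 by DESeq2, beside 0% of all genes tested by edgeR and 5 genes by DESeq2. Of all 18537 genes tested, 467 had an unadjusted p below 0.05 by edgeR. The median log2 fold change was -0.05 over nuclear members and 0.01 over mitochondrial ones, beside 0.01 over all genes tested. The vehicle libraries spread more than sham in these genes, with a median SD between replicates of 0.21 against 0.08 on the log2 scale. Over all genes tested it was 0.18 against 0.13. The nuclear gene with the lowest value was Atp5k (-0.52), an accessory subunit of the ATP synthase, with 27.4 ± 1.45 CPM (SD, n = 3) in sham and 19.1 ± 7.91 in vehicle. Cox6b2 had the highest nuclear value (0.41), on 1.78 ± 1.25 CPM in sham and 2.36 ± 1.19 in vehicle. Over both genomes the extremes were 2 of the uncertain mitochondrial genes, mt-Atp6 (-0.73) and mt-Nd4l (0.63).

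SN-011 without the 3d prefix gave no called respiratory gene either. Against vehicle, 0 of 104 genes were called by edgeR, beside 3 of all 18537 genes tested, and 0 by DESeq2, beside 443. By edgeR, 5 of the 104 had an unadjusted p below 0.05, beside 2050 of all 18537 genes tested. They were mt-Nd3 and mt-Co3 below 0, and Ndufa2, Atp5e and Atp5g2 above. By DESeq2, 7 of 13 mitochondrial and 3 of 91 nuclear members had an unadjusted p below 0.05, where edgeR gave 2 and 3. The share of all genes tested with such a p by DESeq2 was not computed, so the 7 have no background beside them. The nuclear members had a median log2 fold change of 0.03 and the mitochondrial members one of -0.36, with 11 of 13 below 0, beside -0.01 over all genes tested. Without vehicle replicate 2 the mitochondrial median was -0.23. With offsets fitted in each library for GC content and exon length, it was -0.20. The smallest adjusted p (edgeR) was 0.294, for mt-Nd3, on 36.9, 41.8 and 27.2 CPM in vehicle and 27.9, 23.4 and 21.7 in SN011, which overlapped. The highest values were those of Cox7a1 (1.21) and Cox6b2 (1.10), both low and spread between libraries.

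The summed CPM of mitochondrial members was 59836, 56832 and 56403 in sham, and 58692, 64288 and 46981 in vehicle. It was 49661, 42990 and 39128 in SN011, and 45821, 40366 and 32203 in 3d-SN011. The sham and vehicle sums overlapped, SN011 replicate 1 lay above vehicle replicate 3, and all 3 of the 3d-SN011 sums lay below every vehicle sum. This last separation depended on the scaling of the libraries. As an unscaled share of each library's counts, mitochondrial members made up 4.926% in 3d-SN011 replicate 1 and 4.619% in vehicle replicate 3, an overlap. The nuclear members summed to between 7012 and 7351 CPM in sham, 6554 and 7320 in vehicle, 6499 and 7663 in SN011 and 5726 and 6914 in 3d-SN011, so that 3d-SN011 overlapped vehicle and SN011 and lay below sham. The separation from sham also depended on the scaling. Unscaled, nuclear members made up 0.616%, 0.751% and 0.669% of counts in 3d-SN011 and 0.698%, 0.666% and 0.69% in sham, which overlapped. The ratio of the mitochondrial to the nuclear sum was 8.03 ± 0.163 (SD, n = 3) in sham, 8.13 ± 1.63 in vehicle, 6.23 ± 0.233 in SN011 and 6.28 ± 1.55 in 3d-SN011, where replicate 1 alone (8.0) stood at the sham level.

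**Figure D2:**
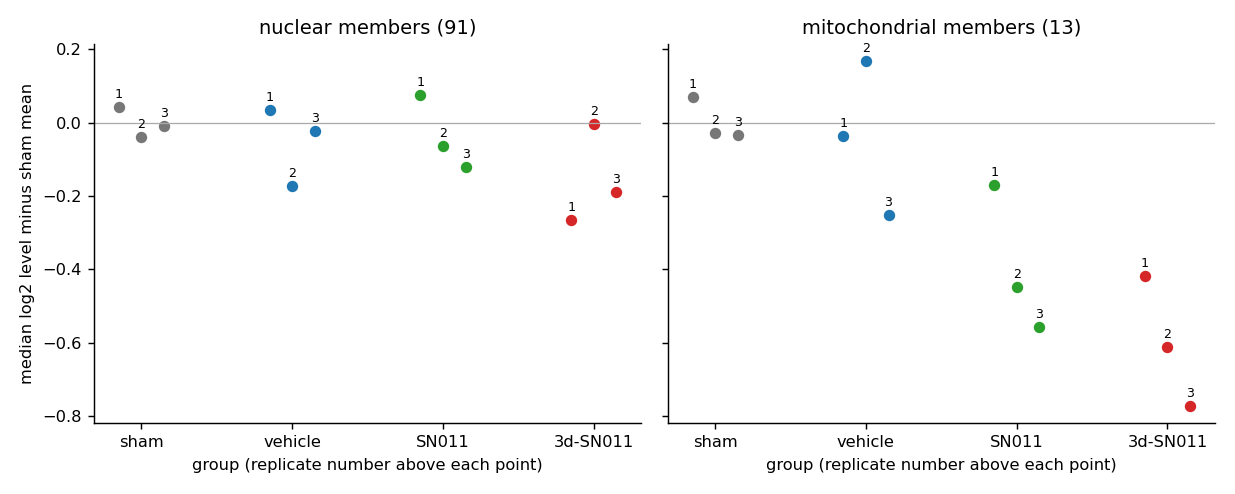
Median log2 level of the 91 nuclear and the 13 mitochondrial members in each library, relative to each gene's mean over sham, with the replicate number above each of the 3 points a group. The nuclear medians lie between -0.27 and 0.07, while the mitochondrial medians reach -0.56 in SN011 and -0.77 in 3d-SN011, and vehicle replicate 3 lies at -0.25.

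In the 3d-SN011 libraries, respiratory genes moved in both directions. Against vehicle, 35 of 104 were called, or 33.7%, a smaller share than the 57.1% of all genes tested. Of these, 12 rose and 23 fell, beside 28.9% of all genes tested that rose and 28.2% that fell. The nuclear members gave 12 higher and 17 lower with a median log2 fold change of -0.04, the mitochondrial members 0 higher and 6 lower with a median of -0.48, and all genes tested a median of 0.01. The nuclear median took the opposite sign without vehicle replicate 1 (0.01) and without 3d-SN011 replicate 1 (0.05). With offsets fitted in each library for GC content and exon length, the split was 9 higher and 34 lower and the medians were -0.21 over nuclear and -0.17 over mitochondrial members. Mitochondrial members have a median GC content of 37.1%, beside 50.2% for nuclear members and 49.4% for all genes tested. Leaving out 1 of the 6 libraries at a time, 21 of the 35 calls held in all 6 fits.

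**Figure D3:**
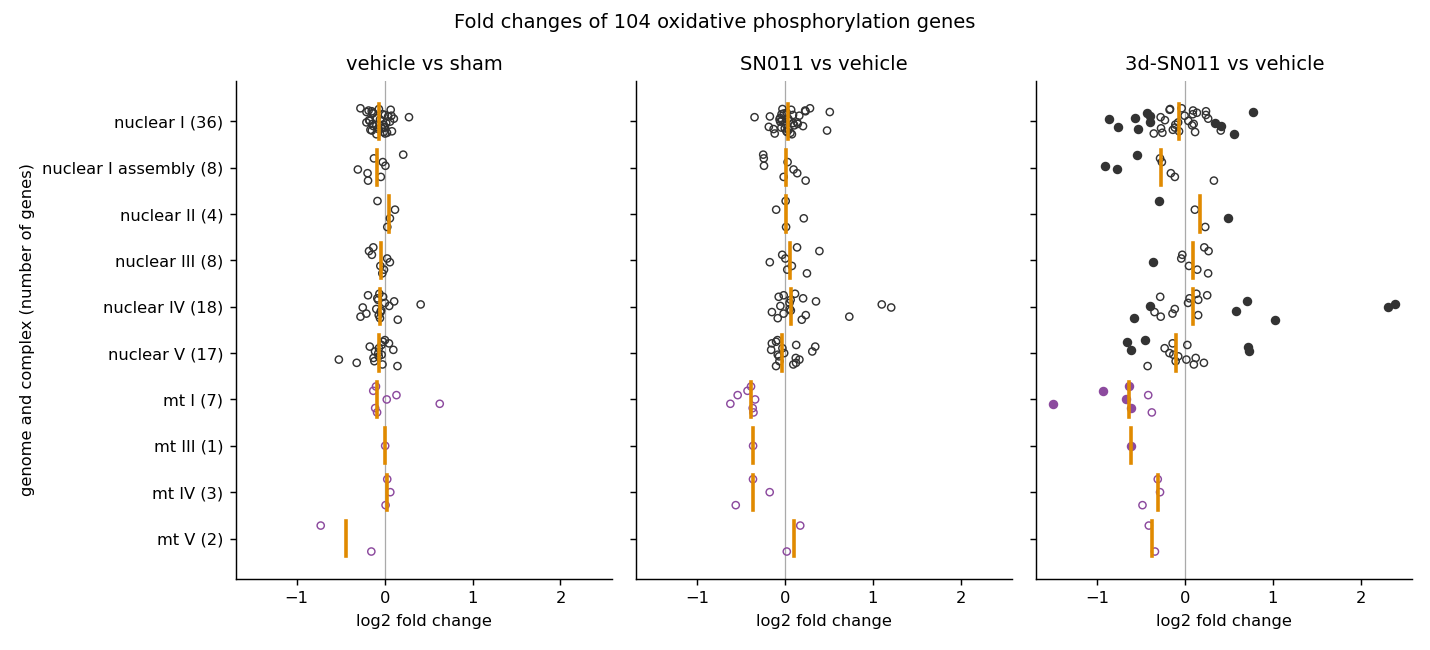
Log2 fold changes of the 104 genes by genome and complex (number of genes in brackets) in 3 comparisons; filled points are called at an adjusted p below 0.05 (edgeR quasi-likelihood test), open points are not, and bars are medians. No gene is filled in the first 2 panels, and in the third the called mitochondrial genes belong to complexes I and III.

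Among the mitochondrial genes, the called ones encoded core subunits of complex I and the cytochrome b of complex III. mt-Nd2, a membrane-arm subunit of complex I, was counted at 5428, 5862 and 4350 CPM in vehicle and at 3053, 3402 and 1752 CPM in 3d-SN011. The 3d-SN011 libraries all lay below the vehicle libraries, replicate 3 farthest, and SN011, at 4461, 3950 and 3243 CPM, overlapped both. mt-Nd2 fell by 0.93 ± 0.24 (SE) on the log2 scale (edgeR adjusted p = 0.00581). mt-Nd1, the subunit next to the quinone site, had 7221, 7562 and 5507 CPM in vehicle and 4901, 4104 and 4040 in 3d-SN011, without overlap (log2 fold change -0.64 ± 0.20 SE, edgeR adjusted p = 0.0157). mt-Nd4 (-0.67) and mt-Nd5 (-0.61), which form proton channels of the membrane arm, fell as well.

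mt-Cytb had 11820, 12220 and 9294 CPM in vehicle and 8286, 8112 and 5416 in 3d-SN011, again without overlap (-0.61 ± 0.22 SE, edgeR adjusted p = 0.0304). mt-Nd4l gave the lowest value of all members (-1.50 ± 0.31 SE, edgeR adjusted p = 0.00124), on 13.1, 31.1 and 18.1 CPM in vehicle and 6.35, 8.65 and 7.002 in 3d-SN011. Since 99% of its transcript is copied on chromosome 1, this call is uncertain. mt-Co1, the catalytic subunit of complex IV and the most abundant member, was not called, on 20870, 22920 and 16550 CPM in vehicle and 19490, 15490 and 13700 in 3d-SN011, where the groups overlapped (-0.31 ± 0.23 SE, adjusted p = 0.261). mt-Nd6 (-0.38), mt-Nd3 (-0.42), mt-Co2 (-0.28), mt-Co3 (-0.48), mt-Atp6 (-0.41) and mt-Atp8 (-0.34) were not called. Whether the complex I genes differ from mt-Co1 in their response was not tested.

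The mitochondrial calls depended on single vehicle libraries. Without vehicle replicate 2, which had the highest mitochondrial sum, 2 of the 6 calls remained, mt-Nd2 and mt-Nd4l, and the same 2 remained with the GC and length offsets, under which 8 of 13 genes lay below 0. Without vehicle replicate 1 the calls of mt-Nd1 and mt-Cytb were lost, and without 3d-SN011 replicate 3 that of mt-Cytb. DESeq2 called 7, adding mt-Nd6.

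The 36 nuclear subunits of complex I split into 4 that rose, 7 that fell and 25 that were not called, the latter between -0.36 and 0.41. The called share was 30.6%, below the 57.1% of all genes tested. Ndufs1, the large iron-sulfur subunit that carries electrons from the NADH site, had 125.5, 128.6 and 114.4 CPM in vehicle and 57.8, 87.9 and 70.7 in 3d-SN011. The groups did not overlap, and Ndufs1 fell by 0.77 ± 0.14 (SE) on the log2 scale (edgeR adjusted p = 0.000422). Ndufb2, an accessory subunit of the membrane arm, went from 19.2, 18.4 and 17.3 CPM to 10.9, 10.6 and 8.56, the largest fall of a nuclear complex I subunit (-0.87 ± 0.15 SE, edgeR adjusted p = 0.000286). The other 5 that fell were Ndufb10 (-0.57), Ndufs4 (-0.53), Ndufa5 (-0.43), Ndufb5 (-0.40) and Ndufa9 (-0.40). The call of Ndufs4 was lost without vehicle replicate 1, that of Ndufa9 without vehicle replicate 2 or 3d-SN011 replicate 1, and that of Ndufa5 in 4 of the 6 fits with 1 library left out.

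The 4 that rose were accessory subunits. Ndufa2, of the matrix arm, had 25.4, 19.3 and 36.2 CPM in vehicle and 48.8, 40.8 and 48.7 in 3d-SN011 (0.78 ± 0.20 SE, edgeR adjusted p = 0.00569). All 3 of the 3d-SN011 values lay above the vehicle values, with vehicle replicate 3 nearest to them. Ndufv3, bound to the NADH-oxidising module that also holds Ndufs1, had 37.7, 30.1 and 36.6 CPM in vehicle and 44.7, 53.7 and 55.4 in 3d-SN011 (0.56 ± 0.13 SE, edgeR adjusted p = 0.00251), without overlap and opposite in sign to Ndufs1. Ndufc2 (0.42) and Ndufb7 (0.34), on the membrane arm, rose by less, and the call of Ndufb7 was lost without vehicle replicate 1 or 2 and with the GC and length offsets (0.11). Ndufab1, the mitochondrial acyl carrier protein and the nuclear gene with the lowest value in SN011 against vehicle (-0.34), was not called in 3d-SN011 (-0.28).

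Of the 8 complex I assembly factors in the Nduf family, 3 fell, 0 rose and 7 lay below 0. The called share was 37.5%, below the 57.1% of all genes tested. Ndufaf4, which takes part in building the quinone-binding module, had 39.4, 45.5 and 31.3 CPM in vehicle and 18.8, 24.7 and 18.5 in 3d-SN011, without overlap, and fell by 0.91 ± 0.15 (SE) on the log2 scale (edgeR adjusted p = 0.000302). Ndufaf5, an enzyme that hydroxylates an arginine of the Ndufs7 subunit, went from 15.9, 16.1 and 16.2 CPM to 8.90, 11.3 and 8.08 (-0.77 ± 0.16 SE, edgeR adjusted p = 0.00109). The vehicle values lay close together and above all 3 of the 3d-SN011 values. Ndufaf1 also fell (-0.55), a call that was lost in 4 of the 6 fits with 1 library left out. Among 11 tested assembly factors outside the Nduf family, 2 fell and 0 rose (18.2% called, beside 57.1% of all genes tested). The 2 were Ecsit (-0.56) and Tmem126b (-0.61), partners of Ndufaf1 in the membrane-arm assembly complex.

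Complex II, which also works in the citrate cycle and has 4 nuclear subunits, gave calls of opposite sign within 1 enzyme. Sdhc, a membrane anchor, had 84.5, 76.6 and 88.4 CPM in vehicle and 112.4, 134.8 and 103.8 in 3d-SN011, without overlap (0.49 ± 0.13 SE, edgeR adjusted p = 0.00621). Sdha, the flavoprotein that oxidises succinate, had 290.2, 277.8 and 294.7 CPM in vehicle and 212.6, 263.9 and 225.2 in 3d-SN011, without overlap. It fell by 0.30 ± 0.11 (SE) on the log2 scale (edgeR adjusted p = 0.0381), a call near the threshold that was lost in 5 of the 6 fits with 1 library left out, while that of Sdhc held in all 6. The iron-sulfur subunit Sdhb (0.11) and the second anchor Sdhd (0.23) were not called. Of the 4 complex II assembly factors, Sdhaf1 rose (0.61) and Sdhaf3 fell (-1.19), both of which act on the iron-sulfur subunit. Among the subunits and among the assembly factors, 2 of 4 genes were called, a share below the 57.1% of all genes tested.

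Complex III gave a single nuclear call (12.5%, below the 57.1% of all genes tested). Of its 8 nuclear members of the Uqcr family, only the core protein gene Uqcrc2 was called, on 101.8, 113.5 and 103.9 CPM in vehicle and 69.0, 98.01 and 81.7 in 3d-SN011 (-0.36 ± 0.13 SE, edgeR adjusted p = 0.0266). Its 3d-SN011 replicate 2 lay just below the lowest vehicle value, and the call was lost without vehicle replicate 2 or 3d-SN011 replicate 1. The other 7 lay between -0.04 and 0.27. Of 9 complex III and cytochrome c genes outside the Uqcr family, 1 rose (Uqcc3, 0.55) and 4 fell. The called share was 55.6%, beside 57.1% of all genes tested. The electron carrier cytochrome c, Cycs, fell from 55.4 ± 6.19 CPM to 33.8 ± 7.81 (SD, n = 3; log2 fold change -0.71), while Cyc1, which passes electrons to it, was not called, on 96.5 ± 12.6 and 103.5 ± 12.3 CPM (0.10). The assembly factors Ttc19 (-1.30) and Lyrm7 (-1.39), which act at the step that installs and processes the Rieske protein, fell as well.

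Complex IV was the complex in which more nuclear genes rose than fell, 5 against 2 of 18, and 3 of those that rose encode isoforms known from muscle or testis and were at low levels. The called share of the 18 was 38.9%, below the 57.1% of all genes tested. With the GC and length offsets, the calls of Cox6a2 and Cox7a1 were lost, and Cox7a2 (-0.36) and Cox7b (-0.36) were called lower. The ubiquitous isoforms Cox4i1 (0.13), Cox6a1 (0.15), Cox6b1 (0.03), Cox7a2 (-0.12) and Cox8a (0.15) were not called, and Cox7b gave -0.35. Ndufa4, a subunit first assigned to complex I and now placed in complex IV, had 93.3, 88.0 and 83.8 CPM in vehicle and 54.5, 62.6 and 60.8 in 3d-SN011, without overlap, and fell by 0.58 ± 0.12 (SE) on the log2 scale (edgeR adjusted p = 0.00109). Its paralog Ndufa4l2, a target of hypoxia-inducible factor, had 2.87, 2.08 and 2.70 CPM in vehicle and 5.07, 3.41 and 7.11 in 3d-SN011 (1.02 ± 0.29 SE, edgeR adjusted p = 0.00916). The 3d-SN011 values of Ndufa4l2 lay above all vehicle values, replicate 2 lowest. In brain, Ndufa4l2 is known from pericytes, whose markers summed to between 220 and 247 CPM in vehicle and 296 and 394 in 3d-SN011, and their part in the result was not tested.

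Cox7a2l, a member of the Cox7a family that joins complexes III and IV into supercomplexes and that C57BL/6 strains carry in a shortened form, had 98.8, 82.1 and 96.2 CPM in vehicle and 149.1, 115.1 and 151.1 in 3d-SN011. The groups did not overlap, and Cox7a2l rose by 0.58 ± 0.13 on the log2 scale (SE, edgeR adjusted p = 0.00237). Cox6b2, known from testis, had 2.25, 1.24 and 3.60 CPM in vehicle and 10.3, 22.4 and 4.58 in 3d-SN011, without overlap but spread widely, and gave the largest rise of any member (2.39 ± 0.64 SE, edgeR adjusted p = 0.00647). The muscle isoform Cox7a1 had 0.250, 0.586 and 0.643 CPM in vehicle and 0.768, 6.03 and 0.593 in 3d-SN011. Replicate 2 alone was high and replicate 3 lay among the vehicle values, so the rise of Cox7a1 (2.31 ± 0.85 SE, edgeR adjusted p = 0.033) rests on 1 library, and without it the value was 0.46 (adjusted p = 0.554).

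The muscle isoform Cox6a2 rose with an edgeR adjusted p of 0.0496 (0.71), a call lost in 5 of the 6 fits with 1 library left out, and Cox6c fell (-0.39), a call lost without vehicle replicate 1 or 3d-SN011 replicate 1. Cox4i2, an isoform induced by low oxygen in lung, had 2.06, 2.86 and 2.25 CPM in vehicle and 3.02, 3.26 and 2.26 in 3d-SN011, where the groups overlapped (0.25 ± 0.31 SE, adjusted p = 0.5). Cox8b (-0.28) was not called. Of 21 tested assembly and copper factors of complex IV, 28.6% were called, beside 57.1% of all genes tested. Of these factors, 2 rose, Coa4 (1.62) and Higd2a (0.69). The 4 that fell were led by Coa7 (-0.83) and Lrpprc (-0.64), the latter a stabiliser of mitochondrial messenger RNA.

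Complex V gave 2 genes that rose and 3 that fell among 17 (29.4% called, below the 57.1% of all genes tested). Its catalytic core fell: Atp5b, the beta subunit that makes ATP, had 901.8, 848.6 and 888.2 CPM in vehicle and 483.8, 626.7 and 562.5 in 3d-SN011, without overlap (-0.66 ± 0.14 SE, edgeR adjusted p = 0.00157), and Atp5a1, the alpha subunit, gave -0.45. Atp5e, the epsilon subunit of the central stalk, rose from 50.2, 35.1 and 50 CPM to 77.3, 77.01 and 67.8 (0.71 ± 0.15 SE, edgeR adjusted p = 0.00132). All 3 of the 3d-SN011 values of Atp5e lay above the vehicle values, vehicle replicate 2 being the lowest.

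The ring of c subunits, which turns with the passing protons, is encoded by Atp5g1, Atp5g2 and Atp5g3, whose mature proteins are the same and whose import signals differ. Atp5g1 had 72.6, 73.9 and 70.6 CPM in vehicle and 39.7, 54.2 and 48.4 in 3d-SN011 and fell by 0.61 ± 0.12 (SE) on the log2 scale (edgeR adjusted p = 0.00109). Atp5g2 had 54.7, 50.7 and 57.0 CPM in vehicle and 94.8, 80.9 and 92.5 in 3d-SN011 and rose by 0.72 ± 0.12 (SE) on the log2 scale, the smallest adjusted p of all members (edgeR, 0.000246). Neither gene's groups overlapped, and both calls held in all 6 fits with 1 library left out. In SN011, Atp5g1 had 72.2, 64.8 and 58.0 CPM, which overlapped vehicle, and Atp5g2 had 72.3, 57.7 and 71.6, which lay between the vehicle and 3d-SN011 values. Atp5g3, the most abundant per length of the 3 in sham at 62.1 RPKM, was not called (-0.18), though it was with the GC and length offsets (-0.35). Of 6 tested complex V factors outside the Atp5 family, 4 fell and 0 rose, with a median of -0.54. The called share was 66.7%, beside 57.1% of all genes tested. Among those that fell were the assembly factor Atpaf1 (-1.12) and the ATPase inhibitor Atpif1 (-0.53).

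**Figure D4:**
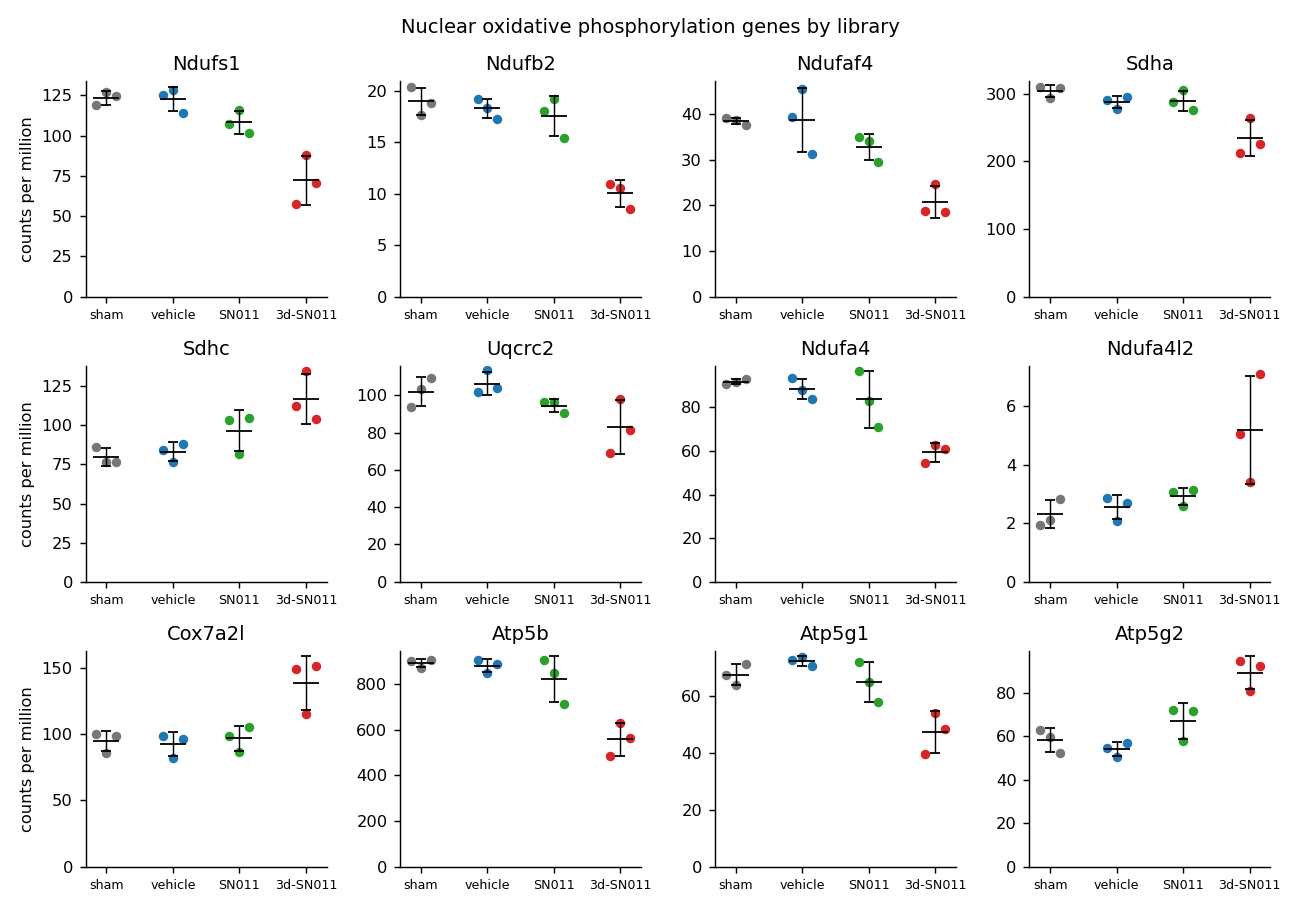
Level in CPM of 12 nuclear members in each library (points), with the mean and SD of each group of 3 (bars). In 3d-SN011, Ndufs1, Ndufb2, Ndufaf4, Sdha, Uqcrc2, Ndufa4, Atp5b and Atp5g1 lie below the vehicle libraries, and Sdhc, Ndufa4l2, Cox7a2l and Atp5g2 above them.

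Ratios per length were taken within each library for 8 pairs of paralogs of 1 subunit or partners in 1 complex. The pairs were chosen with the fold changes known, so the ratios are a description of the same libraries. An exact permutation test of 3d-SN011 against vehicle was run on each pair. With 3 libraries a group its p cannot fall below 0.1, so it cannot call a pair. In 3 pairs both genes had values above 0 against vehicle (Cox6a2 and Cox6a1, Cox6b2 and Cox6b1, Cox4i2 and Cox4i1). The ratio of Atp5g2 to Atp5g1 RPKM was 2.21, 2.01 and 2.37 in vehicle, 2.94, 2.61 and 3.62 in SN011 and 7.01, 4.38 and 5.6 in 3d-SN011. All SN011 ratios lay above the vehicle ratios and below those of 3d-SN011, and in sham they were 2.72, 2.75 and 2.16. The ratio of Ndufa4l2 to Ndufa4 rested near 0.0364 ± 0.0058 (SD, n = 3) in vehicle and 0.111 ± 0.0398 in 3d-SN011, that of Sdhc to Sdha at 0.367 ± 0.0155 and 0.635 ± 0.0444, and that of Cox7a2l to Cox7a2 at 0.985 ± 0.0879 and 1.62 ± 0.33. For 7 of the 8 pairs, Cox4i2 to Cox4i1 being the exception, the vehicle and 3d-SN011 ratios did not overlap. This count follows in part from the choice of pairs, and the share among other pairs of genes was not computed. The gap was narrow for Cox6a2 to Cox6a1, with 0.016 in vehicle replicate 3 and 0.0162 in 3d-SN011 replicate 3. It was also narrow for Cox7a1 to Cox7a2, with 0.018 and 0.019 in the same libraries.

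**Figure D5:**
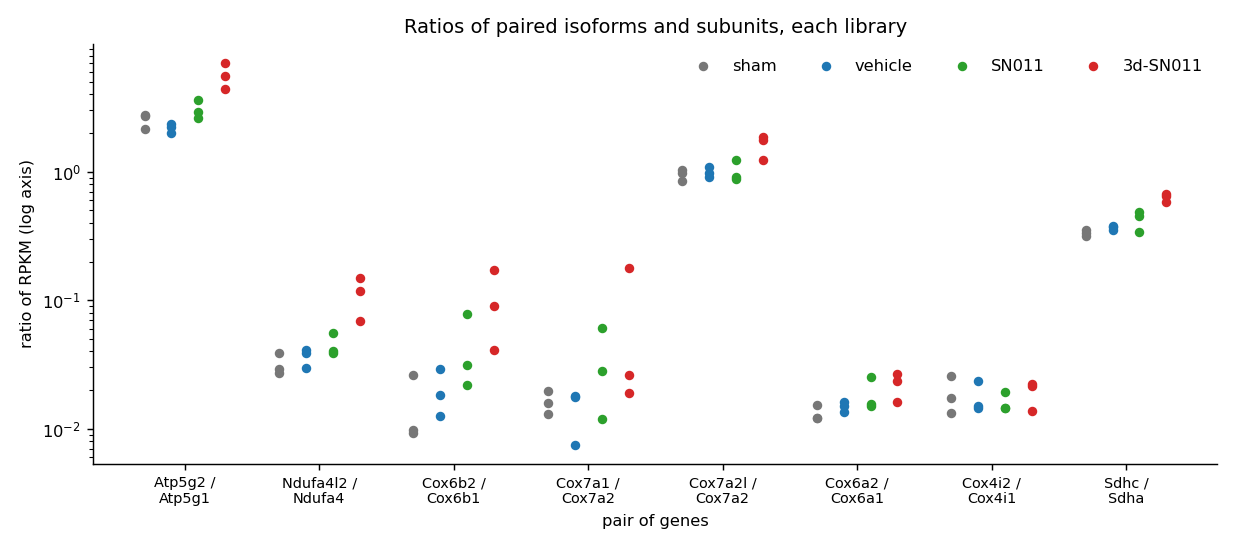
Ratio of RPKM (log axis) within each library for 8 pairs of isoforms or subunits, with 1 point per library and 4 groups of 3. The 3d-SN011 points lie above the vehicle points for every pair but Cox4i2 to Cox4i1, narrowly so for Cox6a2 to Cox6a1 and Cox7a1 to Cox7a2. The latter shows 1 library at 0.179.

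Promoters were inspected for the motif of NRF1 (nuclear respiratory factor 1), a factor known to drive many respiratory genes. The 200 bases before the RefSeq start (GRCm38.p6, 5′ to 3′ on the gene's strand) are printed for the 2 c-subunit genes that went opposite ways, Atp5g1 (chr11:96075632-96075831, minus strand) and Atp5g2 (chr15:102671048-102671247, minus strand), and for the assembly factor Ndufaf4 (chr4:24897883-24898082, plus strand). Capitals mark the core palindrome of NRF1, which reads the same on both strands.
Atp5g1: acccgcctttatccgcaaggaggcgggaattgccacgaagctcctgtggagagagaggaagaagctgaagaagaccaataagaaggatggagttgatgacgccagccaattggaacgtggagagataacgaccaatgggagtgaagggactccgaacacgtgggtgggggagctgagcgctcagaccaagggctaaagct
Atp5g2: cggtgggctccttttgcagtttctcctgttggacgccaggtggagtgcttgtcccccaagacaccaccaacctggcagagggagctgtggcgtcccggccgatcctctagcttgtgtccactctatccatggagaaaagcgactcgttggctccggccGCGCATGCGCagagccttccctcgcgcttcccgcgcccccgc
Ndufaf4: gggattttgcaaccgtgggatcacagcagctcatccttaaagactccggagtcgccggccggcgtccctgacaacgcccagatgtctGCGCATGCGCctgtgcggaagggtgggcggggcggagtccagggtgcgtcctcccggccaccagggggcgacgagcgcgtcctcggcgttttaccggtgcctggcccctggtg
The motif begins 42 bases before the start in Atp5g2, which rose, and 113 bases before it in Ndufaf4, which fell, and does not occur in this window of Atp5g1.

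Of the 91 nuclear members, 73 had a promoter window of 300 bases (250 before and 50 after the start) matched by symbol. The core palindrome was in 7 of them, or 9.59%, beside 1.07% of 27025 genes with a window and 1.98% of the 12780 of these that were tested. The 7 were Atp5g2, which rose, Ndufaf4 and Ndufaf5, which fell, and Atp5k, Cox6a1, Ndufa11 and Uqcrc1, which were not called in 3d-SN011 against vehicle. A longer form of the palindrome, which contains the core, was in 1 (1.37%, beside 0.174% of all and 0.313% of those tested). CCGGAAGT of the ETS family, searched on both strands, was in 5 (6.85%, beside 4.31% of all and 7.72% of those tested). TGACCTTG of the oestrogen-related receptors, likewise, was in 4 (5.48%, beside 1.76% of all and 1.44% of those tested). A match is a description of the letters, with no test. The factors themselves were measured as well: Nrf1 had 26.3 ± 1.31 CPM in vehicle and 29.8 ± 0.568 in 3d-SN011 (SD, n = 3) and was not called, nor was the ETS factor Gabpa (0.30).

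Of 18 regulators of mitochondrial transcription and biogenesis, 2 rose and 4 fell in 3d-SN011 against vehicle. The called share was 33.3%, beside 57.1% of all genes tested. The coactivator Ppargc1b fell from 15.7 ± 1.69 to 4.57 ± 1.27 CPM (SD, n = 3; -1.78) and the receptor Esrrg, which acts with such coactivators on respiratory genes, from 20 ± 4.51 to 6.10 ± 1.88 CPM (-1.71). Ppargc1a, the best known of these coactivators, fell by 0.55, on 48.3 ± 6.77 and 32.9 ± 11.5 CPM. Tfam, which packages and transcribes the mitochondrial chromosome, was not called, on 27.9 ± 0.629 and 26.4 ± 3.06 CPM (-0.08). The mitochondrial DNA-binding protein Ssbp1 (0.49) and the polymerase subunit Polg2 (0.75) rose.

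The citrate cycle, which feeds electrons to the chain, gave 1 gene that rose and 8 that fell of 16, with a median of -0.30. The called share was 56.2%, close to the 57.1% of all genes tested. Its succinyl-CoA ligases went opposite ways: Sucla2, the ATP-forming one, fell by 0.75 on the log2 scale, and Suclg2, the GTP-forming one, rose from 15.4 ± 2.39 to 48.1 ± 8.0 CPM (SD, n = 3; 1.64 ± 0.22 SE, edgeR adjusted p = 6.33e-05). Pdhb, of the pyruvate dehydrogenase, fell by 0.59. Of 10 carriers and uncoupling proteins, 4 were called, a smaller share than the 57.1% of all genes tested. Of these, 1 rose and 3 fell. That 1 was Ucp2, a carrier of the inner membrane abundant in macrophages, from 28.8 ± 3.98 to 543.0 ± 328.6 CPM (4.24), while the neuronal carriers Slc25a14 (-1.51) and Slc25a27 (-0.95) fell. The summed microglial and neuronal markers moved in the same directions, and their part in these results was not tested.

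The comparison of the drug arms with each other uses the same 3d-SN011 libraries, so its calls are no second observation of those against vehicle. Against SN011, 17 of 104 members were called, or 16.3% beside 46.4% of all genes tested, 4 higher (23.6% of all genes tested were higher) and 13 lower (22.9%). All 17 were also called against vehicle. The 4 higher were Ndufv3 (0.48), Cox7a2l (0.52), Ndufa4l2 (0.83) and Atp5g2 (0.41). The call of Ndufa4l2 was lost in 4 of the 6 fits with 1 library left out (0.53 without 3d-SN011 replicate 3), and that of Atp5g2 without SN011 replicate 2. Of the mitochondrial genes only the uncertain mt-Nd4l was called (-0.88), a call lost with the GC and length offsets and without SN011 replicate 1 or 2 or 3d-SN011 replicate 1 or 3. The median of the 13 was -0.25, and -0.04 with the offsets, -0.13 without SN011 replicate 1 and -0.13 without 3d-SN011 replicate 3. The 12 nuclear genes that were lower were Ndufb10 (-0.52), Ndufs4 (-0.41), Ndufb5 (-0.35), Atp5a1 (-0.37), Ndufaf5 (-0.87), Ndufb2 (-0.81), Ndufaf4 (-0.67), Ndufs1 (-0.59), Atp5b (-0.56), Ndufa4 (-0.50), Atp5g1 (-0.45) and Sdha (-0.31). The call of Sdha was also lost without SN011 replicate 1 or 2 or 3d-SN011 replicate 1 or 3. Without 3d-SN011 replicate 2, 24 members were lower, and without SN011 replicate 2, 2 were higher. Side by side, the medians of nuclear complex I subunits were -0.07 against vehicle and -0.13 against SN011, those of complex IV 0.09 and -0.05, and those of complex V -0.11 and -0.05. In the citrate cycle list 1 of 16 rose and 5 fell, among them Dlat (-0.50), the acyltransferase of pyruvate dehydrogenase. The called share was 37.5%, below the 46.4% of all genes tested. Among the regulators 2 of 18 rose and 3 fell (27.8% called, also below the 46.4%). Among the carriers 2 of 10 rose, Ucp2 and the outer membrane channel Vdac2 (0.28), and 3 fell. With 5 of 10 called, the share of the carriers was close to the 46.4% of all genes tested.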

How the data were processed

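Each of 12 polyA+ libraries came as 1 deposited table of integer counts, keyed by Ensembl ID. Per the submitters' processing notes, the authors used HISAT2, featureCounts and build mm10. No version, annotation or strand option is recorded there, and reads that fit several places may have been dropped or split. Depth was 15806076 to 18622053 counts a library. All 12 libraries in 4 title groups were fitted together (group as the only term) in edgeR 4.0.16 (R 4.3.3), with filterByExpr by group (minimum count 10), TMM scaling and the quasi-likelihood test. Calls needed an adjusted p below 0.05, with Benjamini-Hochberg adjustment across the 18537 tested genes. CPM values are TMM-scaled, RPKM divides them by the union of GENCODE M21 exons, which understates genes with long rare exons, and 54409 of 54532 IDs matched a symbol. Nuclear copies were searched with blastn at 95% identity or more for mitochondrial genes only, not for nuclear members, some of which have processed pseudogenes.

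Named in the text are all mitochondrial and complex II members, tissue isoforms, in each complex the 2 called genes with the smallest adjusted p in each direction, called genes that moved against the majority, the extremes of each comparison, and 2 called genes a direction from each pathway list, with Cyc1, Cycs, Ppargc1a, Tfam and Ucp2. Other called members (Ndufb10, Ndufs4, Ndufa5, Ndufb5, Ndufa9, Ndufaf1 and Atp5a1), Nrf1 and Gabpa were added after their values were seen. The members and lists were chosen with earlier results of these data known. The edgeR step was tested on simulated data. Alternatives were RLE scaling, DESeq2 1.42.0, no filter, the 6 compared libraries only, a replicate block, offsets for GC content and exon length (a spline in each library) and leaving out each replicate, and, added after seeing the data, a fit without the 3d-SN011 libraries. Figures used matplotlib 3.10.9.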

Additional observations from a re-analysis of the deposited data

How the results depend on the processing

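Of the called members named by the stated choice, none reversed its direction under any alternative run. For the called members added after their values were seen, direction was compared only with 1 library left out, in 3d-SN011 against vehicle, and it held. For 3d-SN011 against vehicle, 8 to 13 members were higher (12 in the reported fit) and 16 to 34 lower (23) over all alternatives. With 1 replicate left out, 9 to 12 were higher and 16 to 32 lower. For 3d-SN011 against SN011, 4 members were higher and 13 lower in the reported fit. The 6 compared libraries alone gave 1 higher and 7 lower, GC and length offsets gave 24 lower, and leaving out 1 replicate gave 2 to 6 higher and 9 to 24 lower, the 24 without 3d-SN011 replicate 2 and the 2 without SN011 replicate 2. With the 6 compared libraries alone, 24 of 35 calls against vehicle and 8 of 17 against SN011 were kept, those of Ndufa4l2, Cox7a2l, Atp5g2, Atp5b, Atp5g1 and Sdha against SN011 being among the lost. The cause of these shifts was not tested. Vehicle against sham and SN011 against vehicle gave 0 members in every alternative run, including a fit without the 3d-SN011 libraries that was chosen after seeing the data. Between samples with the same replicate number, deviations from the group mean gave correlations from -0.293 to 0.143. Samples with different numbers were not compared, and the labels do not say what a number stands for. Whether the numbers pair the samples is therefore unknown. With the replicate number as a block, 3d-SN011 against vehicle gave 10 higher and 21 lower and 3d-SN011 against SN011 gave 5 higher and 10 lower. Low counts limit Cox7a1, Cox8b and mt-Atp8, each with a mean below 1 CPM in sham.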
